A study of Mus musculus with 8 samples.

Results

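Interferon-inducible GTPases were examined in the liver of fasted mice that lack hepatic pyruvate carboxylase (Pcx), the mitochondrial enzyme that makes oxaloacetate from pyruvate. The 10 genes are F830016B08Rik, Iigp1, Irgm1, Irgm2, Igtp, Ifi47, Gbp2, Gbp3, Gbp6 and Gbp7. F830016B08Rik was chosen because it fell in the same 8 libraries, so its own values are given as a description with no test, and the question was whether its relatives fell with it. Of the 10 genes, 9 had values among the 35275 genes of the table, all 9 were among the 13168 genes that passed the filter on low counts, and Gbp6 was not analysed here. Livers came from 4 Pcx L-/- mice and 4 controls, and 1 library was made per mouse. In Pcx L-/- mice an Albumin-Cre transgene, which acts in hepatocytes, removes floxed exon 10 of Pcx. Pcx in the other cells of the liver was not measured separately. The controls were Pcx f/f littermates without Cre, and the sample labels call them WT. All mice were males, labelled C57BL/6, and their floxed allele derives from a C57BL/6NTac line crossed to a Flpe deleter. They were aged 9 weeks, and were killed after 24 h without food.

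These GTPases belong to a pair of families that cells switch on when interferon reaches its receptors. Receptor-bound Jak kinases pass the signal on to the nucleus, where it ends at the GAS and ISRE elements of target promoters, and the Irf factors take part there. The immunity-related GTPases (IRGs) and the guanylate-binding proteins (GBPs) gather on the membrane of vacuoles that hold intracellular parasites and bacteria and help to break them open. Irgm1, Irgm2 and Igtp are regulatory IRGs, known as the GMS group, which keep the effector IRGs inactive on the cell's own membranes. Iigp1 and Ifi47 are effector IRGs of the GKS group, and the GBPs are larger proteins that assemble on the same membranes.

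The deleted gene followed the labels, with 556 to 758 normalized counts of Pcx in Pcx L-/- liver and 14371 to 22059 in control liver. Normalized counts are read counts divided by the TMM-scaled library size, and totals ranged from 12016242 to 20023108 reads, with control replicate 4 the shallowest. Among all genes 1855 (14.1%) were higher and 1777 (13.5%) were lower in Pcx L-/- liver at an adjusted p below 0.05, with a median log2 fold change of -0.01. When libraries were scaled by their totals alone that median moved to 0.28 and the calls split into 3915 higher and 870 lower, and the values below, scaled by TMM, are relative to most genes. Hepatocyte markers were lower as a list, with 3 of 8 called and a median log2 fold change of -0.61, and their summed normalized counts were 1739761 to 2259147 in control and 1001245 to 1515994 in Pcx L-/- liver. Summed Kupffer cell markers, 1 of 9 of which was called and was higher, lay between 4821 and 7277 in control and between 5713 and 7389 in Pcx L-/- liver. Markers of liver endothelial cells (median -0.08), stellate cells (-0.09), cholangiocytes (-0.47), T and NK cells (-0.01), B cells (0.28), neutrophils (1.40, 1 gene tested) and red blood cells (1.29) gave 1 call in all, a lower cholangiocyte gene, and the neutrophil marker Ly6g had no reads. The part of these shifts in the results on the GTPases was not tested, and fewer cells of a type cannot be told apart from less RNA per cell in whole liver.

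F830016B08Rik encodes an IRG protein and lies on chromosome 18 (60293380 to 60303016, plus strand, GRCm38), listed as ENSMUSG00000090942. Its normalized counts were 439.7, 682.6, 643.8 and 566.8 in control replicates 1 to 4 and 149.1, 90.8, 105.0 and 93.3 in Pcx L-/- replicates 1 to 4. The highest Pcx L-/- mouse thus stood well below the lowest control, and the Pcx L-/- mean of 110 ± 27.1 (SD, n = 4) was 18.8% of the control mean of 583 ± 107 (SD, n = 4). The log2 fold change of -2.41 (SE 0.19) chose the gene and is not support for anything that follows.

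Iigp1, which encodes the effector IRG known as Irga6, lies downstream of it on the same strand (chromosome 18, 60376027 to 60392634, ENSMUSG00000054072). Its normalized counts were 3646, 4754, 4393 and 3352 in the control mice and 2083, 1040, 1530 and 1272 in the Pcx L-/- mice. Iigp1 was lower in every Pcx L-/- mouse than in every control mouse, and Pcx L-/- replicate 1 was the nearest to the controls. The mean was 4036 ± 649 in control and 1481 ± 448 in Pcx L-/- liver (SD, n = 4 each), or 36.7% of control, and the log2 fold change was -1.45 (SE 0.21, adjusted p = 0.00111 by the quasi-likelihood F test of edgeR, Benjamini-Hochberg adjusted over all genes tested). The call held under all 18 alternatives, where the log2 fold change ranged from -1.66 to -1.17.

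**Figure D1:**
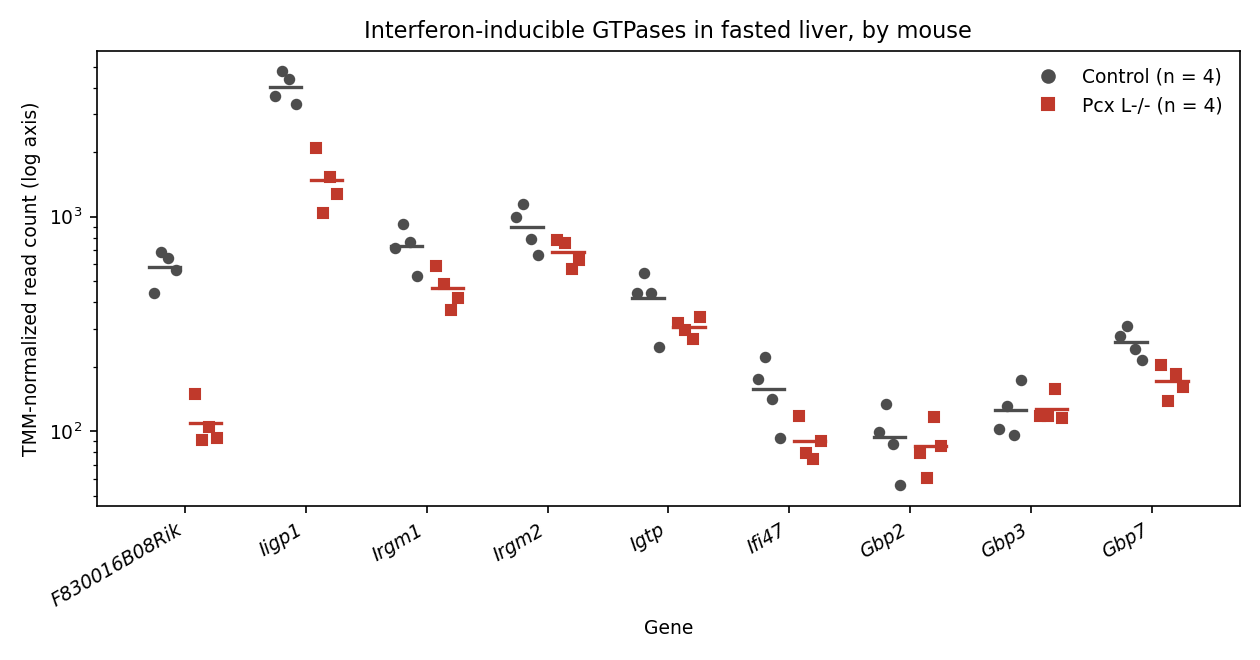
TMM-normalized read counts of the 9 GTPases on a log axis, with 1 point per mouse (4 control, grey circles, and 4 Pcx L-/-, red squares) and a bar at each group mean. The groups are apart for F830016B08Rik, which was chosen by this difference, for Iigp1 and for Gbp7, and they overlap for the other 6 genes.

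Among the 8 relatives with values, 4 were suppressed in Pcx L-/- liver (Iigp1, Irgm1, Ifi47 and Gbp7) and 0 were induced, against 13.5% of all genes called lower. The median log2 fold change of the 8 was -0.53, compared with -0.01 for all genes tested. All 4 Pcx L-/- values lay below all 4 control values for 2 of the 8, Iigp1 and Gbp7, where 12.5% of all genes did so. Of the control mean, F830016B08Rik kept 18.8%, Iigp1 36.7% and the other 3 between 57.2% and 65.8%. In the same libraries the hepatocyte markers had a median log2 fold change of -0.61, and their part in the fall of the relatives was not tested. The 4 calls became 1 (Iigp1) when libraries were scaled by their totals alone, and leaving out 1 mouse gave between 1 (without Pcx L-/- replicate 4) and 6 (without control replicate 4).

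Of the 3 regulatory IRGs Irgm1 was suppressed and Irgm2 and Igtp did not pass the test. Irgm1 (chromosome 11, 48861968 to 48871683, minus strand, ENSMUSG00000046879), whose protein works at autophagic and vacuolar membranes, had 718, 922, 759 and 530 normalized counts in control liver and 587, 485, 366 and 419 in Pcx L-/- liver. Control replicate 4 fell inside the range of the Pcx L-/- mice. The log2 fold change was -0.66 (SE 0.18, adjusted p = 0.0201, edgeR quasi-likelihood F test, Benjamini-Hochberg adjusted), and the Pcx L-/- mean was 63.4% of control. Scaling by totals alone gave -0.40 (adjusted p = 0.108), which was -0.68 relative to the median of all genes under that scaling. Leaving out any 1 of control replicates 2 and 3 and Pcx L-/- replicates 3 and 4 also lost the call (adjusted p between 0.0514 and 0.0667, edgeR).

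Irgm2 (chromosome 11, 58199618 to 58222782, plus strand, ENSMUSG00000069874) and Igtp (58199556 to 58207591, plus strand, ENSMUSG00000078853), which encodes Irgm3, overlap in the annotation and share 11.8% of the 50-base windows of Igtp. Reads of the shared stretches may have been left out of both counts or assigned to either gene. Irgm2 had 1001, 1141, 790 and 662 normalized counts in control liver and 781, 751, 568 and 628 in Pcx L-/- liver, with a log2 fold change of -0.40 (SE 0.17, adjusted p = 0.106 by edgeR). Igtp had 441, 546, 439 and 246 in control liver and 321, 295, 268 and 340 in Pcx L-/- liver, with a log2 fold change of -0.46 (SE 0.20, adjusted p = 0.108 by edgeR). In both genes the groups overlapped, and neither passed the test. Both did so when control replicate 4 was left out, Irgm2 at a log2 fold change of -0.52 (adjusted p = 0.03, edgeR) and Igtp at -0.64 (adjusted p = 0.00636, edgeR).

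Ifi47, the gene of the effector IRG Irgd, lies on chromosome 11 (49076587 to 49096974, plus strand, ENSMUSG00000078920). Its normalized counts were 175, 222, 142 and 93.3 in the controls and 118, 79.4, 73.9 and 90.3 in the Pcx L-/- mice. Here too control replicate 4 was the control inside the range of the Pcx L-/- mice. The log2 fold change was -0.82 (SE 0.25, adjusted p = 0.0305, edgeR quasi-likelihood F test, Benjamini-Hochberg adjusted), and the call was lost when any 1 of control replicates 1, 2 and 3 or of Pcx L-/- replicates 2, 3 and 4 was left out, with adjusted p between 0.0507 and 0.0874. Totals-only scaling gave -0.57 (adjusted p = 0.104).

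Of the 3 GBPs with values, Gbp7 fell and Gbp2 and Gbp3 did not pass the test. Gbp7 (chromosome 3, 142530342 to 142550149, plus strand, ENSMUSG00000040253) had 279, 310, 241 and 214 normalized counts in control liver and 203, 139, 185 and 160 in Pcx L-/- liver. Its groups did not overlap, although the highest Pcx L-/- mouse and the lowest control were close, and its log2 fold change was -0.61 (SE 0.16, adjusted p = 0.0157, edgeR quasi-likelihood F test, Benjamini-Hochberg adjusted). The call was lost under totals-only scaling (-0.34, adjusted p = 0.142) and without Pcx L-/- replicate 2 (adjusted p = 0.0511) or replicate 4 (adjusted p = 0.054). Gbp7 shares 12.7% of its 50-base windows with other genes, mostly Gm43802, so the counting of those reads is uncertain too.

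Gbp2 (chromosome 3, 142620602 to 142638008, plus strand, ENSMUSG00000028270) had 99.2, 134, 87.1 and 56 normalized counts in control liver and 79.3, 60.3, 117 and 85.3 in Pcx L-/- liver. The groups were interleaved, and the log2 fold change was -0.16 (SE 0.27, adjusted p = 0.707, edgeR), and under totals-only scaling it was 0.12, or -0.16 relative to the median of all genes. Gbp3 (chromosome 3, 142560026 to 142573209, plus strand, ENSMUSG00000028268) had 103, 131, 95.7 and 173 in control liver and 118, 118, 158 and 115 in Pcx L-/- liver. Its log2 fold change was 0.04 (SE 0.20, adjusted p = 0.917, edgeR). Gm43302, a gene model that spans the Gbp6 locus and shares 93% of its 50-base windows with Gbp6, had 146 to 258 normalized counts in control and 154 to 332 in Pcx L-/- liver and was not called (log2 fold change 0.30, adjusted p = 0.364, edgeR).

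Promoters of the relatives are shown because interferon acts on these genes through GAS and ISRE elements, and so that a reader can see what the suppressed and the uncalled genes carry. RefSeq promoter sequences (GRCm38.p6) were matched by symbol for 7 of the 10 genes, and F830016B08Rik, Iigp1 and Gbp6 had no match. The 150 bases before the start site were searched on both strands for GAS (TTCNNNGAA, which reads the same on both strands) and for the core of ISRE (GAAANNGAAA, or TTTCNNTTTC on the other strand). Capitals mark the matches, and overlapping matches run together. Each sequence is given 5′ to 3′ on the strand of its gene.
Irgm1 (chr11:48871421-48871570, minus strand): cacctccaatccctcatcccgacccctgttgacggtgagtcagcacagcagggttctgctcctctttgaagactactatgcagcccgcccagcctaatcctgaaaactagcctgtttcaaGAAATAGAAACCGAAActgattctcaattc
Ifi47 (chr11:49076437-49076586, plus strand): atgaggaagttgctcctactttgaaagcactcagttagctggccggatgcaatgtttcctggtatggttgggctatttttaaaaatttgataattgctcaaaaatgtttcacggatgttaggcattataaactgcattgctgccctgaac
Gbp7 (chr3:142530186-142530335, plus strand): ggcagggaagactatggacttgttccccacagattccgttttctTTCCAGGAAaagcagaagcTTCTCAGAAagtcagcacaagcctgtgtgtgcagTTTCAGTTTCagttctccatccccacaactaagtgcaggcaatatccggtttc
Igtp (chr11:58199406-58199555, plus strand): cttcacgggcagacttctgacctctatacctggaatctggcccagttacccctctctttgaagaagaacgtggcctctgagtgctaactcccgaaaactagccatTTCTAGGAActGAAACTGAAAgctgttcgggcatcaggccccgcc
Gbp2 (chr3:142620513-142620662, plus strand): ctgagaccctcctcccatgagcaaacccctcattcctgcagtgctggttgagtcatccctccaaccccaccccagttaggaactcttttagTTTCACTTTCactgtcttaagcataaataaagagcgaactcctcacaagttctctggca
Irgm1 holds an overlapping pair of ISRE cores, 30 and 24 bases before the start, and Ifi47 holds no match. Gbp7 holds GAS 106 and 87 bases and ISRE 53 bases before the start. In Igtp GAS and ISRE begin 45 and 34 bases before the start, and Gbp2 has 1 ISRE 59 bases before it. ISRE was found in 6 of the 7 genes, all but Ifi47, and in Gbp3 at 1 of its 2 starts. GAS was found in 3 of the 7 (Igtp, Irgm2 and Gbp7). Of all 32851 windows 1.59% held ISRE and 4.09% held GAS. The 7 genes were listed as interferon-inducible and are counted by gene, not by window, so these shares are a description only. Matches stood before genes that fell (Irgm1, Gbp7) and before genes that were not called (Igtp, Irgm2, Gbp2, Gbp3), and such a match is a string of letters, not a measured binding site. Iigp1, the relative with the largest fall, and F830016B08Rik had no sequence and are absent from this comparison.

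Per length, Iigp1 was the most abundant of the 9 GTPases in both genotypes. In control liver it had 69.4 ± 13.9 FPKM (SD, n = 4), followed by Irgm2 with 13.9 ± 3.90, Igtp with 11.2 ± 3.76, Irgm1 with 10.3 ± 2.70 and F830016B08Rik with 9.45 ± 1.92 FPKM. Each of these last 4 differed from the next by less than either SD. Ifi47 had 4.84 ± 1.84 FPKM, and Gbp7 (2.52 ± 0.521), Gbp3 (2.48 ± 0.566) and Gbp2 (2.02 ± 0.772) could not be ordered beyond their spread. In Pcx L-/- liver Iigp1 still led with 30.4 ± 6.70 FPKM, then came Irgm2 (12.7 ± 1.57), Igtp (9.82 ± 1.06), Irgm1 (7.80 ± 1.09), Ifi47 (3.29 ± 0.421), Gbp3 (3.10 ± 0.638), Gbp2 (2.22 ± 0.679), F830016B08Rik (2.13 ± 0.326) and Gbp7 (2 ± 0.235). Ifi47 differed from Gbp3, and Gbp2, F830016B08Rik and Gbp7 from each other, by less than their SDs. F830016B08Rik thus stood among the regulatory IRGs in control liver and among the GBPs in Pcx L-/- liver, and FPKM were scaled by library totals alone.

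Whether the relatives fell by different amounts was tested on log2 ratios within each mouse, for all 28 pairs of the 8 relatives. The ratios were of normalized CPM (reads per 1e+06) with 0.5 added. The ratio of Iigp1 to each of the other 7 was lower in every Pcx L-/- mouse than in every control mouse, by between -1.52 (to Gbp3) and -0.76 (to Ifi47) on the log2 scale. Among the 21 pairs without Iigp1 the groups did not overlap in 1, Ifi47 to Gbp2, with a difference of -0.60. Each of these 8 differences reached p = 0.0286 in an exact two-sided permutation test, the smallest that 4 mice against 4 allow, and 0 of 28 passed after Benjamini-Hochberg adjustment over the pairs (adjusted p = 0.1). At that floor the 7 pairs with Iigp1 could not pass by themselves, however large their differences, so the adjusted values do not decide the question. The ratio of Irgm1 to Ifi47 differed by 0.07 (p = 0.629) and that of Irgm2 to Igtp by 0.02 (p = 0.914, same exact permutation test).

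The rest of the IRG and GBP families was then measured in the same fit. Of 8 other IRG genes tested 3 were suppressed (Gm4951, Gm4841 and Tgtp1) and 0 induced, where 13.5% of all genes were lower and 14.1% higher, with a median log2 fold change of -0.78. Of 6 other GBP genes 0 were called in either direction by edgeR or by DESeq2, 0 had an unadjusted p below 0.05, and the median was 0.17. The log2 fold changes of these GBP genes were 0.19 for Gbp2b, -0.09 for Gbp4, 0.14 for Gbp8, -0.04 for Gbp9, 0.25 for Gbp11 and 0.30 for Gm43302. Gbp11 is annotated as a polymorphic pseudogene. Gbp5 and Gbp10 were not analysed here.

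Gm4951 and Gm4841, IRG genes of chromosome 18, lie on the other side of F830016B08Rik from Iigp1. Gm4951 (60212080 to 60247820, plus strand) had 1941, 2212, 2004 and 1551 normalized counts in control liver and 1228, 514, 673 and 602 in Pcx L-/- liver. The groups did not overlap, and the log2 fold change was -1.36 (SE 0.24, adjusted p = 0.003, edgeR quasi-likelihood F test, Benjamini-Hochberg adjusted), a call kept under all 18 alternatives. Gm4841 (60268305 to 60273272, minus strand) had few reads, with 16.4, 18.4, 27.9 and 10.2 normalized counts in control and 10.4, 5.34, 4.67 and 3.97 in Pcx L-/- liver. Its log2 fold change was -1.60 (SE 0.41, adjusted p = 0.0152, edgeR), and leaving out any 1 of control replicate 3 and Pcx L-/- replicates 3 and 4 lost the call (adjusted p between 0.0507 and 0.0558).

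On chromosome 11, Tgtp1 and Tgtp2 encode nearly the same effector IRG (Irgb6), and Tgtp1 shares 81.2% of its 50-base windows with other genes, mostly Tgtp2. Tgtp1 had 49.2, 106, 65.6 and 20.4 normalized counts in control liver and 18.9, 17.6, 8.55 and 34.7 in Pcx L-/- liver, with a log2 fold change of -1.64 (SE 0.48, adjusted p = 0.0264, edgeR), while Tgtp2 differed by -0.06 (SE 0.30, adjusted p = 0.91, edgeR). The groups overlapped in both, and how reads of the shared sequence were counted, if at all, is uncertain. Tgtp1 lost its call when any 1 of control replicates 2 and 3 and Pcx L-/- replicates 2 and 3 was left out. Log2 fold changes were -0.52 for Gm12250 (adjusted p = 0.37), -1.03 for 9930111J21Rik1 (adjusted p = 0.0752), -0.20 for 9930111J21Rik2 (adjusted p = 0.604) and -0.04 for Gm5431 (adjusted p = 0.941, all by edgeR), and 9930111J21Rik1 and 9930111J21Rik2 also share most of their sequence. GENCODE M21 annotates Gm12250 as a processed pseudogene (58187739 to 58189012), while its RefSeq promoter window ends upstream of that, at 58183842. The counted span may leave out part of the gene. Gm12185 with 21 reads in the 8 libraries (exact permutation test p = 0.857, two-sided) and Irgc1 with 1 read were below the filter.

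By chromosome, and without F830016B08Rik, 3 of 3 IRG genes of chromosome 18 were suppressed with a median log2 fold change of -1.45. On chromosome 11 this was so for 3 of 10, with a median of -0.49, on chromosome 3 for 1 of 4 (-0.06) and on chromosome 5 for 0 of 5 (0.14), beside 13.5% of all genes called lower. The difference between the clusters was not tested.

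**Figure D2:**
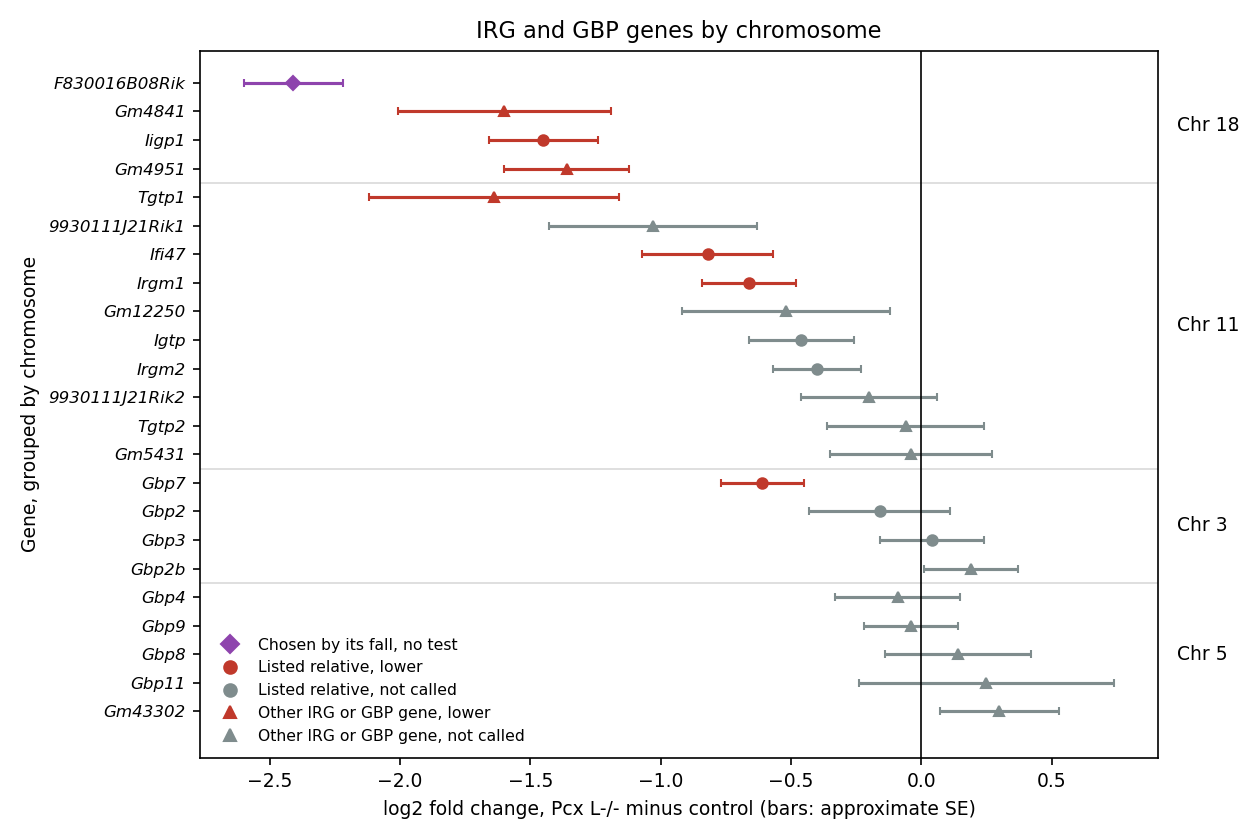
Log2 fold change (Pcx L-/- minus control, n = 4 each) of the 23 IRG and GBP genes tested, grouped by chromosome, with bars of 1 approximate SE. Red marks genes called lower by edgeR, grey genes not called, circles the listed relatives, triangles other family genes, and the diamond F830016B08Rik, which was chosen by its fall. The genes of chromosome 18 lie between -2.41 and -1.36 and those of chromosome 5 between -0.09 and 0.30.

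Genes of the same region other than the IRG genes named above were also measured. Within 1000 kb of the start of F830016B08Rik, a window chosen after the values were seen, 19 genes were tested, of which 4 were the IRGs above. Of the other 15 genes 1 was lower, 4 were higher and 10 were not called, beside 13.5% of all genes lower and 14.1% higher, with a median log2 fold change of -0.03. The lower gene was Ndst1, a heparan sulphate sulfotransferase (-0.79, adjusted p = 0.00445), 455.3 kb away, and the higher genes were Smim3, Rps14, Tcof1 and the pseudogene Rps2-ps10. The nearest with values were the pseudogenes Gm5970 (-0.33, adjusted p = 0.3) and BC023105 (-1.17, adjusted p = 0.0703, all by edgeR). Gm5970 lies within the span of Gm4951, and BC023105 shares 6.15% of the 50-base windows of Gm4841. Both are counted among the 15, and whether they are copies of IRG genes was not tested.

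**Figure D3:**
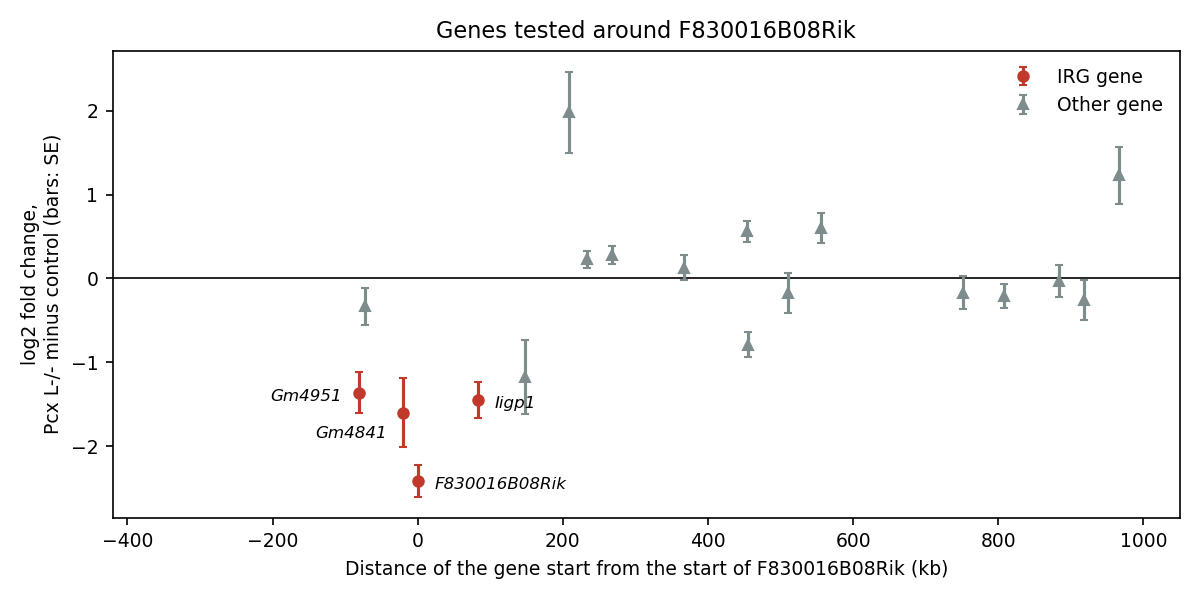
Log2 fold change (Pcx L-/- minus control, bars of 1 approximate SE, n = 4 each) of the 19 genes tested within 1000 kb, plotted against the distance in kb of each gene start from that of F830016B08Rik. The 4 IRG genes (red circles), F830016B08Rik included, sit between -81.3 and 82.6 kb and between -2.41 and -1.36, and the other genes (grey triangles) lie on both sides of 0.

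The large GTPases outside these families gave 0 calls among 6 tested by edgeR or DESeq2, with 1 gene lower at an unadjusted p below 0.05. Of all genes 13.5% were called lower and 14.1% higher by edgeR, and lists this short do not differ clearly from those shares. Mx1 and Mx2, genes of a family of dynamin-like proteins that type I interferon induces and that act on viruses, had log2 fold changes of -0.79 (adjusted p = 0.218) and -0.48 (adjusted p = 0.34). Those of the very large inducible GTPase genes were -0.79 for Gvin1 (adjusted p = 0.0865), -0.40 for Gm4070, -0.48 for Gm1966 and 0.02 for Gm8995, and Gm8979 was below the filter. The annotation lists Mx2 as a polymorphic pseudogene and Gm1966, Gm8995 and Gm8979 as pseudogenes, so a working protein is not implied for them. Mx2 was highest in Pcx L-/- replicate 1, with 127 normalized counts against 41.2 to 45.6 in the other 3. The atlastins, membrane GTPases related to the GBPs that interferon does not induce, were not called either (Atl1 -0.53, Atl2 -0.34 and Atl3 -0.13, median -0.34).

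Within a genotype many of the GTPases were high or low in the same mice, and whether this is particular to them was not tested. Between whole libraries, control replicate 4 had Spearman correlations of 0.976 to 0.983 with the other controls, which had 0.988 to 0.991 among themselves. For Pcx L-/- replicate 1 they were 0.976 to 0.983 with its group, and 0.991 to 0.993 among the others. Control replicate 2 was the highest control for 8 of the 9 genes, all but Gbp3, and control replicate 4, the shallowest library, was the lowest for 7 of 9, with Gbp3 highest there. The deviations of control replicate 4 from its genotype mean went down to -0.69 for Igtp, on the log2 scale, and its deviation for Gbp3 was 0.47. Among Pcx L-/- mice replicate 1 was the highest for 6 of 9 (F830016B08Rik, Iigp1, Irgm1, Irgm2, Ifi47 and Gbp7), and replicates 2 and 3 were the lowest for 4 genes each. Library names end in a number, read here as a mouse number, which the labels do not state. Pcx L-/- replicate 1 was the only one of its genotype with a number in the 500s. The other 3, like 2 of the controls, were numbered in the 800s. Among the mice numbered in the 800s alone Iigp1 had a log2 fold change of -1.60 (adjusted p = 1.81e-04), Irgm1 of -0.61 (adjusted p = 0.0269), Ifi47 of -0.56 (adjusted p = 0.0988) and Gbp7 of -0.50 (adjusted p = 0.0548, all by edgeR). Among those in the 500s, with 2 controls and 1 Pcx L-/- mouse and hence no test, the mean log2 differences were -1.0, -0.47, -0.70 and -0.52 in the same order.

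**Figure D4:**
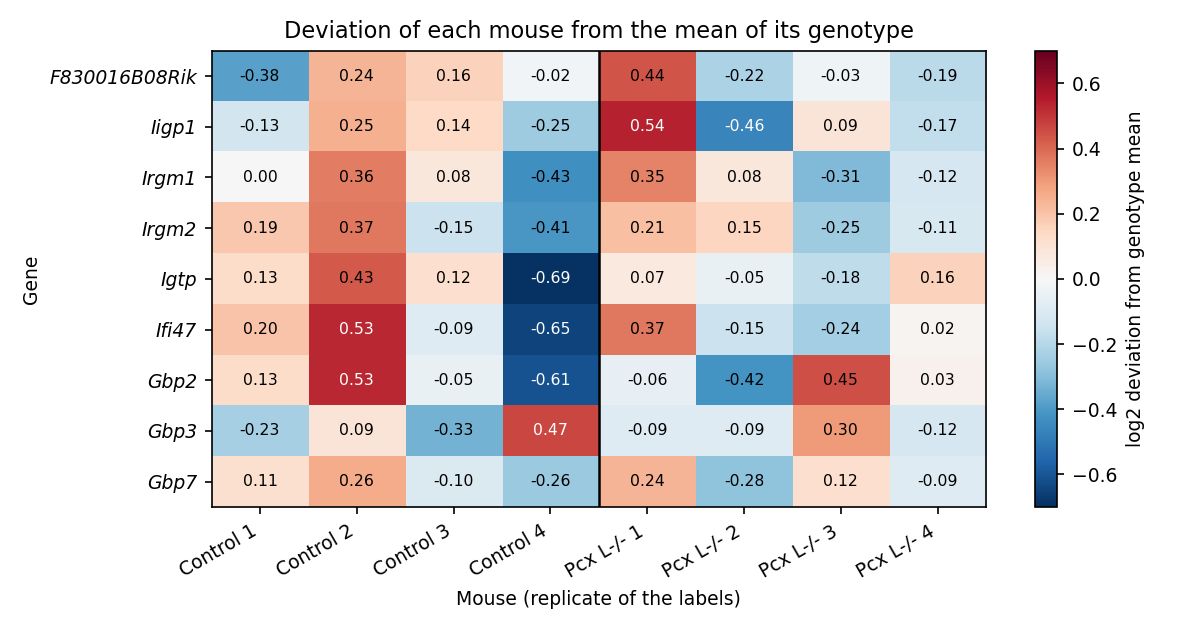
Deviation of each mouse from the mean of its genotype, in log2 of normalized CPM (reads per 1e+06) with 0.5 added. The 9 GTPases run vertically and the 8 mice horizontally, with red above and blue below the mean. Control replicate 2 is above the mean for all 9 genes, and control replicate 4 is below it for 8 of 9.

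The genes whose deviations over the 8 mice were most like those of F830016B08Rik were Ufc1 (Pearson's r 0.98), Ints8 (0.97), Ino80dos (0.97), Agfg2 (0.96) and Srpk3 (0.96), none of them a GTPase of these families. Iigp1 ranked 113 (r 0.85) and Gm4951 ranked 364 (r 0.77), while the other listed relatives were at 0.52 or less, from Irgm1 (0.52) to Gbp3 (0.08). Without centring on the genotype means, where a gene that falls with genotype scores high by that alone, the first 5 were Fzd1, Mertk, Osbpl1a, Stk38l and Sppl2a, which shares 0 genes with the first list. The points are 8 mice with the same libraries and depth, so the correlations are a description only.

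Upstream of the GTPases, the reads of Ifng and Ifnb1, the only interferon genes looked up, were too few to compare. Ifng had 4 reads in the 4 control libraries and 3 in the 4 Pcx L-/- libraries (exact permutation test p = 0.714, two-sided), and Ifnb1 had 0 reads in all 8. A count of 0 allows up to 3 reads per group, for counting error only. Of the receptor chains Ifnar2 was lower (log2 fold change -0.37, adjusted p = 0.0212), and its partner Ifnar1 (-0.21, adjusted p = 0.241), both chains of the interferon gamma receptor, Ifngr1 (0.26, adjusted p = 0.141) and Ifngr2 (-0.07, adjusted p = 0.796), and Il10rb (0.43, adjusted p = 0.242, all by edgeR) were not called. Ifnar2 kept its call in 9 of 18 alternatives and lost it without control replicate 3 or any 1 of Pcx L-/- replicates 2, 3 and 4 (adjusted p between 0.0579 and 0.0747, edgeR). Under totals-only scaling Ifnar2 was at -0.09 (adjusted p = 0.548) and Ifngr1 was called higher (0.55, adjusted p = 0.0228, edgeR), which were -0.37 and 0.27 relative to the median of all genes. Ifnlr1, the chain specific to interferon lambda, was below the filter with 20 reads in all.

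Of 20 signal genes tested 6 were lower and 1 was higher, beside 13.5% and 14.1% of all genes, with a median log2 fold change of -0.20. Nlrc5, the interferon-inducible transactivator of MHC class I genes, showed the largest difference of these, with 766, 750, 802 and 730 normalized counts in control and 529, 279, 268 and 257 in Pcx L-/- liver. Its groups were well apart, at a log2 fold change of -1.19 (SE 0.21, adjusted p = 0.00278, edgeR). Irf7 (-0.55, adjusted p = 0.0326), Irf9 (-0.40, adjusted p = 0.0277), Irf2 (-0.36, adjusted p = 0.0297), Stat2 (-0.28, adjusted p = 0.0404) and Pias1 (-0.36, adjusted p = 0.0299) were the other lower genes, and Usp18, which dampens signaling at Ifnar2, was higher (0.43, adjusted p = 0.0211, all by edgeR). Totals-only scaling, which shifts all genes, left 1 of the 6 lower calls and put Stat2 at 0.01, which was -0.27 relative to the median of all genes. Irf1, which takes part in the induction of IRG and GBP genes by interferon gamma, was not called, with a log2 fold change of -0.26 (SE 0.29, adjusted p = 0.547, edgeR). Other genes not called were Jak1 (-0.02), Jak2 (-0.19), Tyk2 (0.03), Stat3 (-0.45), Irf3 (0.27), Irf8 (-0.16), Ciita (-0.22), Socs1 (-0.80), Socs3 (0.40), Ptpn2 (-0.04) and Ptpn11 (-0.11), and Batf2 was below the filter.

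Other interferon targets were mixed. Of 35 type I targets 8 were lower and 2 higher, with a median log2 fold change of -0.25, and the lower ones with the largest changes were Ifit1, which binds viral RNA (-1.11, adjusted p = 0.0252), Oasl1 (-1.07, adjusted p = 0.015), and the ADP-ribosyltransferase family genes Parp14 (-0.89, adjusted p = 0.00242) and Parp9 (-0.65, adjusted p = 0.0174). The 2 higher genes were Oas2 (0.58, adjusted p = 0.0347) and Lgals3bp (0.44, adjusted p = 0.0367), and Rnf213, whose mean normalized count in control liver was the highest of the list (2344), was not called (-0.30, adjusted p = 0.124). Of 23 antigen presentation genes 1 was lower, the peptide trimming enzyme Erap1 (-0.58, adjusted p = 0.0085), and the MHC class I gene H2-K1 differed by -0.04 (adjusted p = 0.835, all by edgeR). Among 14 interferon gamma chemokines and effectors Serping1, the C1 inhibitor, was lower (-0.64, adjusted p = 0.00972) and the tryptophanyl-tRNA synthetase Wars was higher (0.60, adjusted p = 0.0102, both by edgeR). Over all these pathway lists 17 of 97 genes tested were lower and 4 higher, with a median of -0.17, where 13.5% and 14.1% of all genes were lower and higher. Under totals-only scaling the same lists gave 7 lower and 13 higher, and the count of lower genes ranged from 6 without Pcx L-/- replicate 4 to 24 without Pcx L-/- replicate 1.

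Of 15 genes tested of the autophagy machinery that IRGs and GBPs work with, 3 were higher and 4 were lower, beside 14.1% and 13.5% of all genes. The cargo receptor Sqstm1 (log2 fold change 0.92, adjusted p = 0.00567), the Atg8-family gene Gabarapl1 (0.81, adjusted p = 0.0135) and Atg12 (0.50, adjusted p = 0.00485) were higher. Atg16l1 (-0.49, adjusted p = 0.00995), Atg5 (-0.40, adjusted p = 0.0302), Map1lc3b (-0.34, adjusted p = 0.0412) and Traf6 (-0.32, adjusted p = 0.042, all by edgeR) were lower, of which 0 remained called under totals-only scaling.

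**Figure D5:**
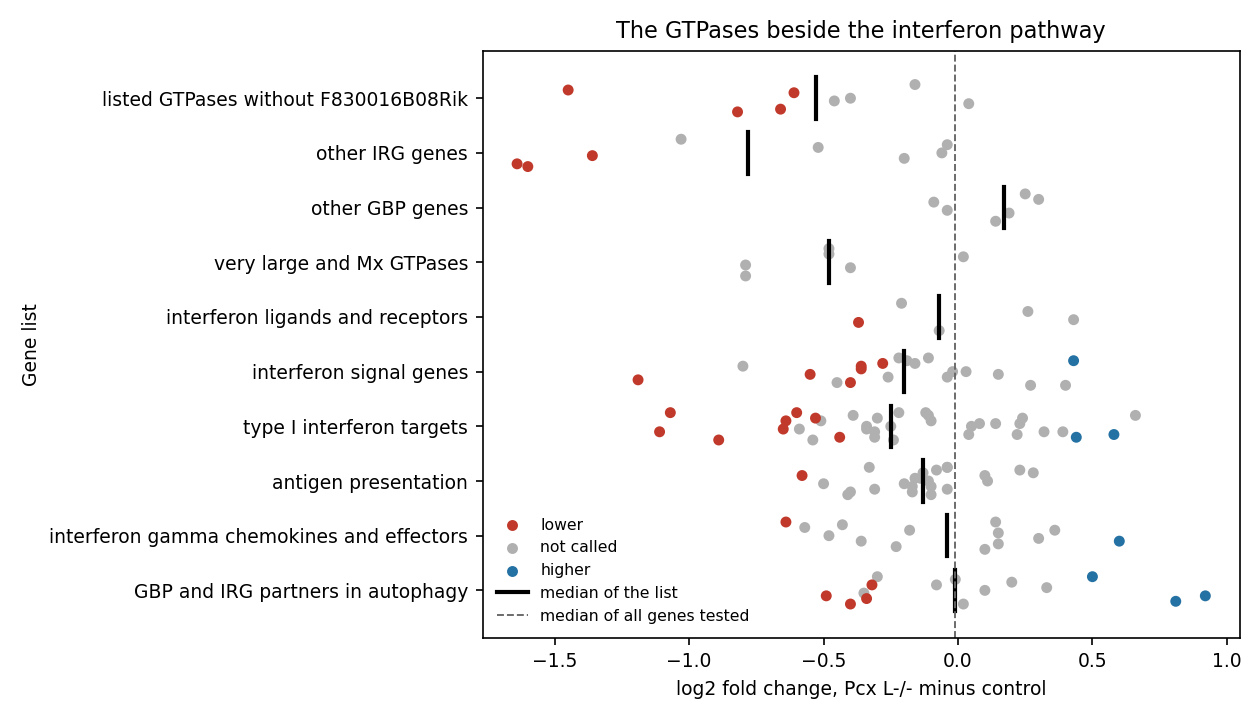
Log2 fold change (Pcx L-/- minus control, n = 4 each) of every gene tested in each list, with genes called lower in red, higher in blue and not called in grey, a black bar at the median of the list and a dashed line at the median of all genes. The 8 listed relatives (F830016B08Rik left out) have a median of -0.53, the other IRG genes -0.78 and the other GBP genes 0.17.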

How the data were processed

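Total RNA of 8 livers was sequenced by a company with 1 library per mouse. Alignment by the authors was to mm10, the same build as GRCm38. Their deposited counts are unnormalized reads on each Ensembl gene, and the deposited FPKM equalled the count divided by 1 length per gene and by the library total for 100% of 142384 values above 0, within a relative tolerance of 1e-06. The submitters' processing notes name STAR 2.5, HTSeq 0.6.1 and DESeq2, and the sources used here do not say whether counting used strand. Symbols and positions came from GENCODE M21, which matched 97.8% of the identifiers.

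Counts were fitted with edgeR 4.0.16 (R 4.3.3), TMM factors, genotype as the only term, the quasi-likelihood F test and Benjamini-Hochberg adjustment over 13168 genes kept by filterByExpr (minimum count 10, minimum total 15). Residual degrees of freedom were 6 and the biological coefficient of variation 0.181, and SEs are approximate, from the F statistic. The sequence that genes share was counted over 50-base windows of GENCODE M21 transcripts. Single values were compared by exact permutation tests. Before log2, 0.5 CPM was added for the deviations, their correlations, the ratios and the differences of the 500s. The main fit and some alternatives were also run on simulated counts, with as many genes raised as lowered. Such counts do not test the choice of scaling, and the ratios, permutation tests and correlations were not simulated. Alternatives were DESeq2 size factors, totals-only scaling, no filter, DESeq2 1.42.0, limma 3.58.1 on log2(FPKM + 1) and log2(FPKM + 0.1), the mouse series (500s or 800s) as a covariate, the 800s alone, a replicate block, and each mouse left out.

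The members and gene lists were chosen with earlier results of these data known. Named are all members, all other IRG, GBP, very large, Mx and atlastin GTPases with reads, and all listed interferon ligands, receptors and signal genes. From each other list come up to 4 called genes per direction by size and the most abundant. The 5 genes most like F830016B08Rik are named too. Of the signal genes, 1 is counted in its list but its value is not reported here. Neighbours of F830016B08Rik were chosen after their values were seen.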

Additional observations from a re-analysis of the deposited data

Results flagged for a closer look

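Among 150 groups of 4 mice examined, 8 held a mouse far from the other 3, where about 1 group in 20 would by chance. Among the GBP genes, Gbp3 had 158 normalized counts in Pcx L-/- replicate 3 and 115 to 118 in the other Pcx L-/- mice, and Gbp11 had 177 in Pcx L-/- replicate 1 and 32.8 to 51.6 in the others. Pcx L-/- replicate 1 also stood apart for Mx2 (127 normalized counts, others 41.2 to 45.6), Nlrc5 (529, others 257 to 279), Irf2 (711, others 559 to 576), Serping1 (10763, others 7373 to 7944) and Atg5 (844, others 620 to 642), each time as the highest of its genotype. Oas2 was lowest in Pcx L-/- replicate 2 (61.1 normalized counts, others 71.5 to 73.4).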

How the results depend on the processing

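Iigp1 and Gm4951 were called lower under all 18 alternatives. The 4 listed relatives called lower became 1 under totals-only scaling and under each of the 3 limma fits on FPKM, 2 among mice numbered in the 800s, and between 1 and 6 with 1 mouse left out. The 3 other family genes called lower became 1 under limma with all genes above 0, and between 1 and 3 with 1 mouse left out. Among the 800s Gm4951 kept its call, Tgtp1 lost it (adjusted p = 0.149, edgeR) and Gm4841 failed the filter. The 17 pathway genes called lower became 7 under totals-only scaling, 5 under limma on log2(FPKM + 1) and log2(FPKM + 0.1) and 4 with all genes above 0, and between 6 and 24 with 1 mouse left out, and the 4 called higher became 13, 13, 13 and 9 in the same order and between 1 and 3. The replicate block gave 11 pathway genes lower and 2 higher, 4 listed relatives lower and 2 other family genes lower. Mice with the same replicate number showed no strong shared deviation (correlations of 0.12, -0.14, -0.12 and -0.08 for replicates 1 to 4). These values cannot tell whether mice were littermates or were handled together. Without TMM factors the median of all genes was 0.28, and relative to it Iigp1 was -1.47, Irgm1 -0.68, Ifi47 -0.85, Gbp7 -0.62, Gbp2 -0.16 and Stat2 -0.27. The log2 fold change of Gbp2, not called, turned positive under totals-only scaling (0.12), limma on log2(FPKM + 1) (0.10), on log2(FPKM + 0.1) (0.16) and with all genes above 0 (0.10), without control replicate 2 (0.06, within -0.35 to 0.06 with 1 mouse left out) and among the 800s (0.26). That of Gbp3 turned negative with the mouse series as a covariate (-0.01), without control replicate 1 (-0.05), control replicate 3 (-0.08) or Pcx L-/- replicate 3 (-0.09, within -0.09 to 0.21), and among the 800s (-0.01). Stat2, called lower, gave 0.01 under totals-only scaling, 0.01 and 0.01 under limma on log2(FPKM + 1) and log2(FPKM + 0.1) and 0.01 with all genes above 0. Of the 24 signal, target and autophagy genes named as called, 9 stayed called with any 1 mouse left out (Nlrc5, Parp14, Erap1, Serping1, Wars, Atg16l1, Sqstm1, Gabarapl1 and Atg12). The causes were not tested. With 4 mice a genotype and 12016242 to 20023108 reads a library, differences in genes with few reads, such as Gm4841, are uncertain.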
